A study of Homo sapiens with 10 samples.

Results

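Genes of paraquat reduction, transport and resistance were examined in SH-SY5Y cells, an established line from a human neuroblastoma. The set was named as 10 genes by their reported roles, not by level, but with earlier results of these data known. It holds enzymes that pass electrons to paraquat or make superoxide (POR, NOS1 and NOX4) and a subunit of NADPH oxidases (CYBA). A loss-of-function screen tied POR, ATP7A and SLC45A4 to paraquat killing. The rest are carriers that may take paraquat in or out (SLC22A3, SLC47A1 and SLC6A3) and the efflux pump ABCB1. Each gene was represented by the transcript cluster, a set of exon probes for 1 locus, whose annotation gave that gene alone. Of the 10 genes, 8 had such a row and are the members described here, among 14232 genes and 22011 rows in all. SLC47A1 shared its only row with the small nucleolar RNAs SNORA59A and SNORA59B, so that row is given as a value only, and SLC22A3 was not analysed here.

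Expression was measured on 10 exon arrays. There were 5 arrays of untreated cells (ctrl 7, 11, 13, 17 and 19, after the numbers in the titles) and 5 of cells given paraquat (Paraquat 8, 12, 14, 18 and 20). All arrays were of the same cell line, with no genetic change named. The sources used here give neither dose nor duration of the treatment, nor do they state that arrays came from separate cultures. The p-values therefore reflect only differences among these 10 arrays, which could be technical. Values are on a log2 scale after RMA, the authors' method of background correction, normalization and probe summary, so a difference of 1 is a 2-fold change. The signals of different genes depend on their own probes and were not ordered as amounts of RNA.

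Paraquat is a bipyridyl herbicide that kills by redox cycling. A reductase passes 1 electron from NADPH to the paraquat dication, and the resulting radical hands it to oxygen, which gives superoxide and restores paraquat for another round. In dopaminergic and noradrenergic cells the entry route matters as well, because paraquat is a charged molecule that crosses membranes on carriers for cations, monoamines or neutral amino acids.

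Of the 8 members, 2 changed, both downward: NOX4 fell 1.67-fold and CYBA, the gene of its membrane partner, fell 1.29-fold. The rule for a change was an adjusted p under 0.05 in limma's moderated test, with Benjamini-Hochberg adjustment over all 22011 rows. By that rule 23.8% of all genes changed, 9.55% upward and 14.2% downward, so a count of 2 of 8 lies near the background and says nothing particular about the set. None of the members passed upward in limma, and POR was the 1 with a higher level at an unadjusted p under 0.05. Unadjusted, 4 members were lower at that level, namely NOX4, CYBA, ATP7A and ABCB1, while 34.8% of all genes reached it in either direction. The median log2 change was -0.14 over the 8 members and -0.0041 over all genes, and the median absolute change was 0.35 over the members and 0.18 over all genes. Values of ctrl and Paraquat arrays did not overlap for 2 members, NOX4 and CYBA, as for 19.9% of all genes.

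**Figure D1:**
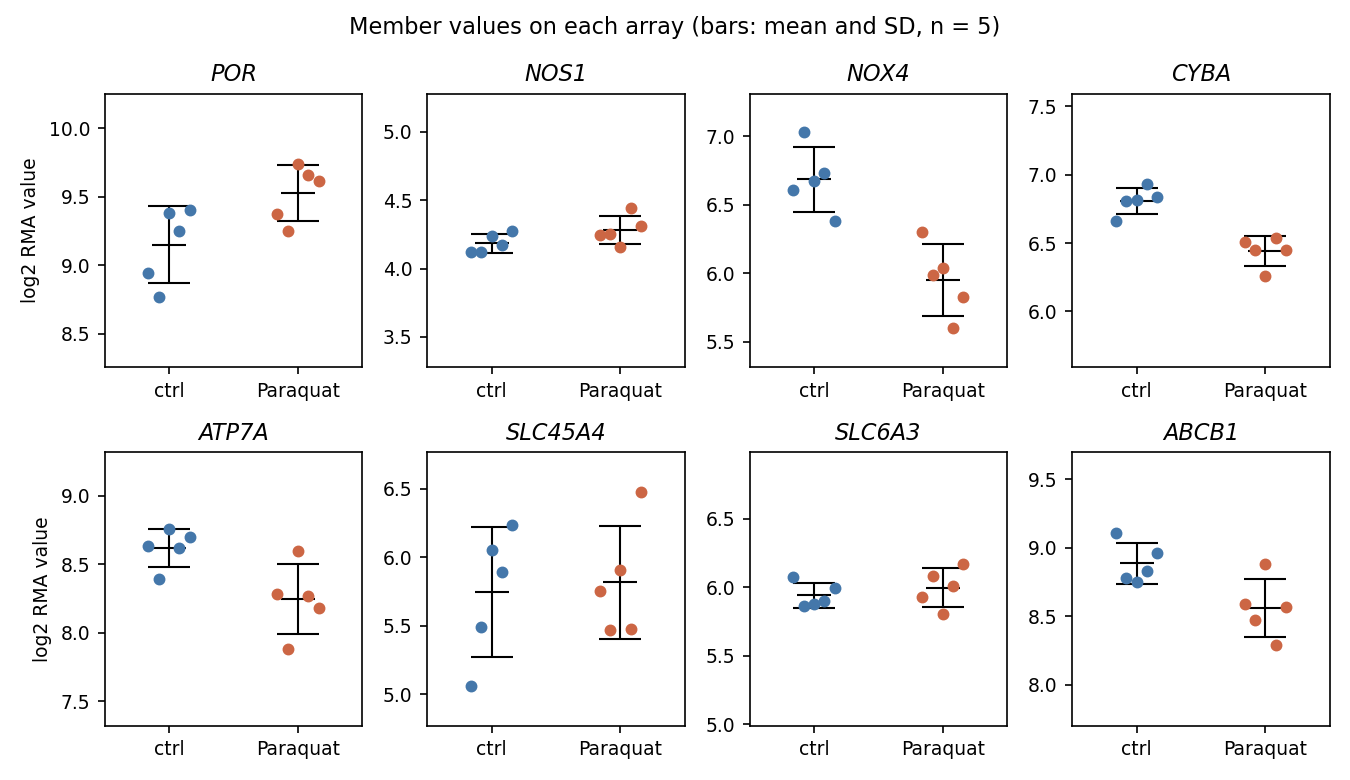
log2 RMA value of each member (y axis, each panel spanning 2 log2 units) on 5 ctrl and 5 Paraquat arrays (x axis, points in order of sample number), with the mean and SD of each group. The NOX4 and CYBA points of the groups do not overlap, those of POR, ATP7A and ABCB1 are displaced but overlap, and those of SLC45A4 spread from 5.06 to 6.48.

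**Figure D2:**
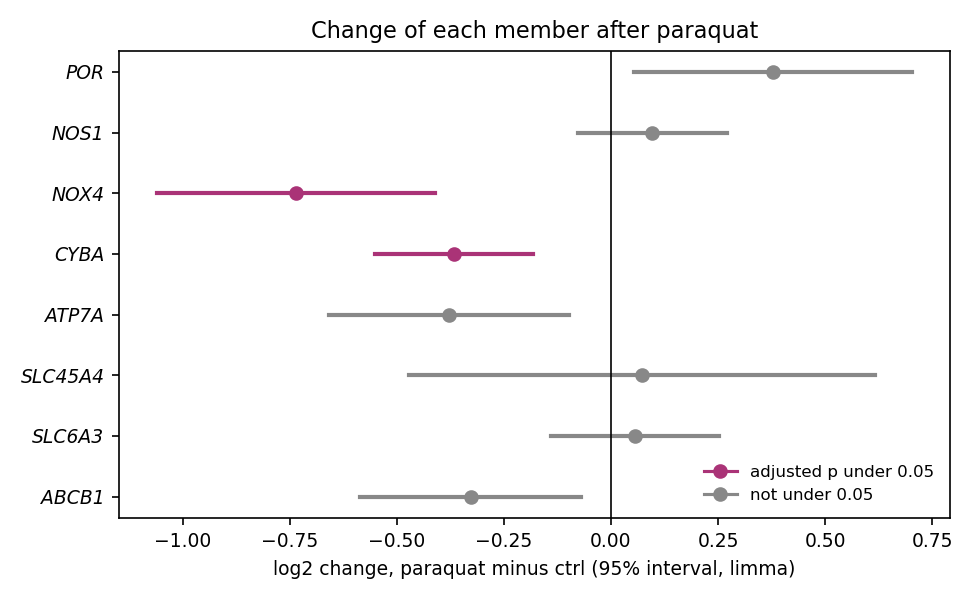
log2 change of each member, paraquat minus ctrl, with its 95% interval from limma, which is not adjusted for the number of rows tested. The NOX4 change of -0.74 is the largest in size, and the intervals of SLC45A4, SLC6A3 and NOS1 span 0.

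The labelled cells were checked against defining genes of sympathetic neuroblasts. The 8 such genes with a row of their own had a mean signal of 9.24 to 9.44 on the ctrl arrays. The mean signal was 4.32 to 4.76 for 4 glial and 4.48 to 4.74 for 4 leukocyte markers, but signals of different probes do not show which of these genes had more RNA. HAND2 and DBH had no row of their own, and the TH row had a mean of 6.28, under the median row mean of 6.87. After paraquat 6 of the 8 neuroblast markers fell and none rose (limma, 6 fell and none rose at an unadjusted p under 0.05), with array means of 8.59 to 8.83. Of 8 markers of mesenchymal, substrate-adherent cells 3 rose (SNAI2, TGFBI and CD44) and none fell. At an unadjusted p under 0.05 in limma 5 were higher and 1, COL1A1, was lower (-0.51, limma adjusted p = 0.0534). The array means of the 8 went from between 7.24 and 7.50 to between 7.92 and 8.40. In bulk RNA, fewer cells of a type and less RNA per cell cannot be told apart, and the part of these shifts in the member changes was not tested. Array medians lay between 6.78 and 6.93. The widest residuals were those of ctrl 11, with an SD of 0.36 against 0.21 to 0.29 for the other arrays.

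POR encodes NADPH-cytochrome P450 oxidoreductase, the flavoprotein of the endoplasmic reticulum that donates electrons to cytochromes P450 and is the best known paraquat reductase of the cytoplasm. Its transcript cluster 3009229 gave a bright signal, with 86.6% of rows dimmer. The ctrl values were 8.95, 8.77, 9.39, 9.25 and 9.40 for arrays 7, 11, 13, 17 and 19, and the paraquat values were 9.37, 9.25, 9.74, 9.66 and 9.61 for arrays 8, 12, 14, 18 and 20. Arrays ctrl 7 and ctrl 11 were the lowest, and Paraquat 8 and 12 lay among the higher ctrl arrays, so the groups overlapped. The means were 9.15 ± 0.28 and 9.53 ± 0.21 (SD, n = 5 each), a log2 change of 0.38 ± 0.15 (SE), or 1.30-fold, with a 95% interval of 0.05 to 0.70. The change did not pass over all rows (limma adjusted p = 0.103).

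Around POR, a list of 19 reductases that can pass electrons to quinones, cytochromes or related acceptors had 13 measured genes, POR included. Of these 4 rose and none fell, beside 9.55% of all genes that rose, and the list's median change was 0.01. At an unadjusted p under 0.05 in limma 5 were higher, POR among them, and 2 lower. This list and those below were chosen with earlier results of these data known. Their shares beside those of all genes are therefore descriptions and test nothing. TXNRD1, the cytosolic thioredoxin reductase, rose 2.43-fold, from 9.86 ± 0.14 to 11.14 ± 0.08 (limma adjusted p = 3.44e-06). GSR, glutathione reductase, rose 1.76-fold (log2 change 0.82 ± 0.09), and the cytochrome b5 reductase CYB5R2 rose 1.62-fold (0.70 ± 0.12). MTRR, methionine synthase reductase, is a diflavin enzyme built like POR and rose by 0.56 ± 0.13 (limma adjusted p = 0.0109). The cytochrome b5 reductase CYB5R3 (-0.28, adjusted p = 0.228) and lipoamide dehydrogenase DLD (-0.17, adjusted p = 0.551) did not pass in limma. NQO1, the quinone reductase, had no row of its own.

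NOS1 encodes neuronal nitric oxide synthase, whose reductase domain resembles POR and can reduce paraquat. Its transcript cluster 3473524 was dim, with a mean of 4.23, and only 20.5% of rows were dimmer. The ctrl values ran from 4.12 in arrays 7 and 11 to 4.27 in array 19, and the paraquat values from 4.16 in array 14 to 4.44 in array 18. The groups overlapped, and the log2 change was 0.10 ± 0.08 with a 95% interval of -0.08 to 0.27 (limma adjusted p = 0.478). The other synthases, NOS3 (0.06, adjusted p = 0.659) and NOS2 (0.01, adjusted p = 0.946), also did not pass in limma.

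Among 13 measured genes of the nitric oxide synthases, their binding partners and their cofactor and substrate supply, none rose and 1 fell (limma, none higher and 1 lower at an unadjusted p under 0.05), a share of 7.69% beside 23.8% of all genes. The gene that fell was SPR, sepiapterin reductase, which makes the last step of tetrahydrobiopterin synthesis, at 7.16 ± 0.22 in ctrl and 6.63 ± 0.21 after paraquat (log2 change -0.53 ± 0.13, limma adjusted p = 0.0147). GCH1, which makes the first step of that pathway, had a change of 0.06 (adjusted p = 0.789).

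NOX4 encodes an NADPH oxidase that releases mainly hydrogen peroxide and is active once it is made, and CYBA encodes p22phox, the small membrane subunit that stabilises NOX4 and other NADPH oxidases. Both genes fell after paraquat, so the stretches before their annotated starts are shown for reference. RefSeq starts were searched for 5 of the 10 named genes (8 starts in all), 3 for NOX4 and 1 for CYBA. Starts of SLC45A4 were not searched. Each stretch is the 250 bases before the start in build GRCh38.p14, on the minus strand and read 5′ to 3′, from chr11:89491376-89491625 for the first listed NOX4 start and from chr16:88651054-88651303 for CYBA. Capitals mark matches to the GC box, GGGCGG on either strand, which was the only searched motif with a match in them.
NOX4: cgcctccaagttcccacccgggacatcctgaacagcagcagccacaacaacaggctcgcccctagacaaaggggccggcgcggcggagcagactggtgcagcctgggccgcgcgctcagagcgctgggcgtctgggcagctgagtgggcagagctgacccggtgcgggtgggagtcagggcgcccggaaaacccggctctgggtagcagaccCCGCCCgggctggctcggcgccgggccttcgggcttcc
CYBA: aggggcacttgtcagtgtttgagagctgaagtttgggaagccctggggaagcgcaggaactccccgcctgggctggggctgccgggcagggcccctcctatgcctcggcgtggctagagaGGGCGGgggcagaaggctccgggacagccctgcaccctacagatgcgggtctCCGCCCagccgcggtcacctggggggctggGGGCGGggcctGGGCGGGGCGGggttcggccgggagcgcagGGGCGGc
The NOX4 stretch held 1 match and the CYBA stretch 6, of which a pair shares 1 base, and both stretches were rich in G and C (72.0% and 73.6%). A GC box match stood in 42.6% of all 35116 stretches of this length. The other motifs, searched on both strands, were the TATA box TATAAA (10.7% of stretches), the CCAAT box CCAAT (32.0%), the AP-1 site TGANTCA (6.57%), the core TGACNNNGC of the antioxidant response element (10.9%) and the core TGATGNAA of a composite site for CEBP and ATF factors (3.14%), where N is any base. The second NOX4 start had 2 CCAAT matches and 1 match to the composite core, and the third had none. Among the other members searched, the NOS1 stretch had an AP-1 match that lies within an antioxidant response element match. The ATP7A stretch had no match, and of 2 ABCB1 starts 1 had 2 CCAAT matches and an overlapping AP-1 match. Which start SH-SY5Y cells use was not measured.

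The NOX4 transcript cluster 3385951 gave 6.61, 7.03, 6.67, 6.74 and 6.38 on ctrl arrays 7, 11, 13, 17 and 19, and 6.30, 5.99, 6.04, 5.60 and 5.83 on Paraquat arrays 8, 12, 14, 18 and 20. Every paraquat array lay under every ctrl array, with the narrowest gap between Paraquat 8 and ctrl 19. The mean went from 6.69 ± 0.23 to 5.95 ± 0.26 (SD, n = 5 each), a log2 change of -0.74 ± 0.15 with a 95% interval of -1.06 to -0.41 (limma adjusted p = 0.00468). The mean of the row over all arrays, 6.32, lay at the upper end of the range of 14 genes restricted to tissues such as liver, heart or testis (2.67 to 6.57, median 4.29), and how much of its signal is background was not measured. Of those 14 genes 2 rose and 1 fell (21.4% changed, beside 23.8% of all genes). The brightest of them, TNNI3 of heart muscle, fell by 0.68 ± 0.15 on the log2 scale (limma adjusted p = 0.00818).

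The CYBA transcript cluster 3704270 gave 6.66, 6.81, 6.81, 6.93 and 6.83 on the ctrl arrays and 6.51, 6.45, 6.26, 6.54 and 6.45 on the Paraquat arrays, in the same order. The groups were tight and did not overlap, with ctrl 7 as the lowest ctrl array and Paraquat 18 as the highest of the treated ones. How much of the CYBA signal is background was not measured. The mean of the CYBA row over all arrays, 6.62, lay just above the brightest tissue-restricted gene, TNNI3, at 6.57. On the ctrl arrays the CYBA mean of 6.81 lay under that of TNNI3 at 6.91. On the Paraquat arrays it lay above, at 6.44 against 6.23. The mean went from 6.81 ± 0.10 to 6.44 ± 0.11, a log2 change of -0.37 ± 0.08 with a 95% interval of -0.55 to -0.18 (limma adjusted p = 0.00995). With any 1 array left out, NOX4 and CYBA still passed, with changes of -0.82 to -0.65 for NOX4 and -0.40 to -0.32 for CYBA.

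Among the rest of the NADPH oxidase family no gene passed downward. Of 10 measured genes in a list of 19, 1 rose and 2 fell (30.0% changed, near the 23.8% of all genes). At an unadjusted p under 0.05 in limma 1 was higher and 3 were lower, CYBC1 being the third. The 2 that passed downward were the members themselves, and the 8 others had a median change of 0.04. RAC2, a small GTPase that activates oxidases of leukocytes, rose from 5.76 ± 0.21 to 6.28 ± 0.24 (log2 change 0.52 ± 0.14, limma adjusted p = 0.0196), and this call was lost without Paraquat 20 (adjusted p = 0.0510). Beside RAC2, 2 of 4 leukocyte markers rose (CD68 and CD14), with array means of 4.48 to 4.74 in ctrl and 5.02 to 5.21 after paraquat, whereas PTPRC and CD3E had means of 2.69 and 2.86 over all arrays, among the dim rows. The part of these markers in the RAC2 value was not tested. RAC1, the widely expressed relative of RAC2, had a change of 0.18 (adjusted p = 0.351). CYBB, the catalytic subunit of phagocytes, was dim at a mean of 3.87 with a change of -0.01 (adjusted p = 0.949). CYBC1, a chaperone of the CYBB and CYBA pair, had a change of -0.22 (limma adjusted p = 0.152). NOX1, NOX5, DUOX1 and DUOX2 had no row of their own.

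The genes most like each changed member were found by the root mean square difference between log2 profiles over the 10 arrays, each centred on its own mean. For NOX4 they were TUBGCP5, a part of the gamma-tubulin ring complex, at 0.07, the actin-bundling protein gene PLS3 at 0.08 and the phosphatase gene CPPED1 at 0.09. For CYBA they were CILP, which encodes a cartilage protein, at 0.07, the constitutive chaperone gene HSPA8 at 0.07 and IDH3G, a subunit of mitochondrial isocitrate dehydrogenase, at 0.07.

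ATP7A encodes the copper pump of the trans-Golgi network that loads copper into secreted enzymes and exports it from the cell. Its transcript cluster 3982423 gave 8.63, 8.39, 8.76, 8.62 and 8.70 on the ctrl arrays and 8.28, 7.88, 8.60, 8.27 and 8.18 on the Paraquat arrays. All treated arrays but Paraquat 14 lay below the lowest ctrl array, ctrl 11. The mean went from 8.62 ± 0.14 to 8.24 ± 0.26, a log2 change of -0.38 ± 0.13, or 1.30-fold lower, with a 95% interval of -0.66 to -0.10. It did not pass with all arrays weighted alike (limma adjusted p = 0.0601). The ATP7A change passed in 6 of 17 alternatives to this fit. Among these were the fits without ctrl 11 (-0.44, limma adjusted p = 0.0362) and without Paraquat 14 (-0.47, limma adjusted p = 0.0165). Another was the fit with array weights (-0.44, limma adjusted p = 0.00598).

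Copper pumps and importers beside ATP7A fell. Of 10 measured genes in a list of 16, ATP7A included, 3 fell and none rose, beside 14.2% of all genes that fell. At an unadjusted p under 0.05 in limma 6 were lower, ATP7A among them, and none higher. The list's median change was -0.33, and that of the 9 genes other than ATP7A was -0.27. ATP7B, the other copper pump, fell from 7.18 ± 0.19 to 6.34 ± 0.15, or 1.79-fold (limma adjusted p = 0.000347). SLC31A1, the copper importer CTR1 of the plasma membrane, fell from 9.004 ± 0.12 to 8.47 ± 0.10 (log2 change -0.53 ± 0.09), and its relative SLC31A2 from 7.10 ± 0.17 to 6.63 ± 0.08 (-0.47 ± 0.09). ATOX1, the chaperone that hands copper to both pumps, had a change of -0.42 ± 0.16 (limma adjusted p = 0.104). CCS, the copper chaperone of superoxide dismutase, and SCO1, a copper chaperone of cytochrome oxidase, had changes of 0.05 (adjusted p = 0.749) and 0.06 (adjusted p = 0.846) in limma.

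SLC45A4 belongs to a family of proton-coupled sugar transporters. Its transcript cluster 3156541 gave 5.06, 5.49, 6.05, 5.89 and 6.24 on the ctrl arrays and 5.76, 5.47, 5.91, 5.48 and 6.48 on the Paraquat arrays. The arrays of both groups were spread over more than 1 log2 unit and interleaved. The means were 5.75 ± 0.47 and 5.82 ± 0.41, and the log2 change of 0.07 ± 0.25 had a 95% interval of -0.47 to 0.62 (limma adjusted p = 0.894), which leaves room for a fall to 0.72-fold or a rise to 1.53-fold. The sign turned without ctrl 7 (-0.10) and without Paraquat 20 (-0.09). Of the relatives measured, SLC45A2, a melanosome transporter, had a dim row that passed upward (4.04 ± 0.19 to 4.41 ± 0.16, limma adjusted p = 0.0416), a call lost without ctrl 11 (adjusted p = 0.0761), ctrl 13 (0.101), ctrl 17 (0.0968), Paraquat 8 (0.0505), Paraquat 12 (0.0789), Paraquat 14 (0.0848) or Paraquat 18 (0.0805). SLC45A3 had a change of -0.15 (adjusted p = 0.607).

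SLC6A3 encodes the dopamine transporter, a proposed entry route of the paraquat radical into dopaminergic neurons. Its transcript cluster 2845921 gave 6.08, 5.86, 5.88, 5.90 and 5.997 on the ctrl arrays and 5.93, 6.08, 5.81, 6.01 and 6.17 on the Paraquat arrays. The groups overlapped, and both lay within the range of the tissue-restricted genes named above. The log2 change was 0.06 ± 0.09 with a 95% interval of -0.14 to 0.25 (limma adjusted p = 0.744). The row shared by SLC47A1, the multidrug and toxin extruder MATE1 that expels cations in the kidney, and the small nucleolar RNAs had means of 7.08 ± 0.10 and 7.08 ± 0.08, with values of 6.98 to 7.19 in ctrl and 6.98 to 7.18 after paraquat and a 95% interval of the change of -0.17 to 0.18.

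Other carriers of cations, monoamines, polyamines and neutral amino acids moved in both directions. Of 22 measured genes in a list of 25, SLC6A3 included, 5 rose and 4 fell (40.9% changed, beside 23.8% of all genes). The median change was 0.07, also over the 21 genes other than SLC6A3. Without the dimmest 33.3% of rows 3 rose, since SLC22A4 and SLC18A2 were not tested then. The largest increases were in SLC3A2 and SLC7A5, the heavy and light chains of the neutral amino acid exchanger LAT1 that has been proposed to carry paraquat. SLC3A2 rose 4.19-fold, from 9.51 ± 0.24 to 11.58 ± 0.17 (limma adjusted p = 1.90e-06), and SLC7A5 rose 3.76-fold, from 9.01 ± 0.37 to 10.92 ± 0.17 (limma adjusted p = 2.05e-05). SLC7A8, the light chain of LAT2, was dim at a mean of 4.69 and had a change of 0.02 (limma adjusted p = 0.879). Also higher were SLC22A4, a carrier of ergothioneine (1.00 ± 0.14 from a ctrl mean of 3.95), ATP13A3, a polyamine pump (0.63 ± 0.16), and the vesicular monoamine transporter SLC18A2 (0.34 ± 0.08 from a ctrl mean of 4.79).

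Among the monoamine carriers 3 fell. SLC6A2, the noradrenaline transporter, fell 3.29-fold, from 9.46 ± 0.19 to 7.74 ± 0.34 (limma adjusted p = 3.60e-05). SLC29A4, the plasma membrane monoamine transporter PMAT, fell 2.37-fold, from 9.81 ± 0.44 to 8.56 ± 0.24, and SLC18A1, the vesicular monoamine transporter of chromaffin cells, fell 2.41-fold, from 8.35 ± 0.20 to 7.08 ± 0.56. SLC44A1, a choline transporter, fell by 0.92 ± 0.10 on the log2 scale. These falls came beside the lower neuroblast markers given above, whose part in them was not tested. The serotonin transporter SLC6A4 (4.19) and the organic cation transporter SLC22A2 (3.01) had dim rows with changes of 0.11 (adjusted p = 0.4997) and 0.03 (adjusted p = 0.852) in limma.

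ABCB1 encodes P-glycoprotein, the drug efflux pump of the blood-brain barrier. Its transcript cluster 3060182 gave 9.11, 8.78, 8.75, 8.83 and 8.96 on the ctrl arrays and 8.59, 8.47, 8.88, 8.29 and 8.57 on the Paraquat arrays. Paraquat 14 lay within the ctrl range, and the other treated arrays lay below it. The mean went from 8.89 ± 0.15 to 8.56 ± 0.21, a log2 change of -0.33 ± 0.12, or 1.25-fold lower, with a 95% interval of -0.59 to -0.07. It did not pass with all arrays weighted alike (limma adjusted p = 0.0761). The ABCB1 change did pass without Paraquat 14 (-0.41, limma adjusted p = 0.0219) and with array weights (-0.33, limma adjusted p = 0.0287).

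Among 10 measured ABC efflux pumps 2 rose and 1 fell (30.0% changed, near the 23.8% of all genes), with a median change of -0.03. Without the dimmest 33.3% of rows 1 rose, since ABCC2 was not tested then. ABCC3, a pump of organic anions and glucuronide conjugates also known as MRP3, rose 8.34-fold, from 6.19 ± 0.11 to 9.26 ± 0.22 (log2 change 3.06 ± 0.11, limma adjusted p = 4.51e-08), the largest change of any gene in the lists examined here. ABCC2, or MRP2, rose by 0.44 ± 0.08 from a dim ctrl mean of 3.62, and ABCC4, or MRP4, fell 1.84-fold (-0.88 ± 0.16, limma adjusted p = 0.00251). ABCC1, the bright relative MRP1, had a change of 0.02 (limma adjusted p = 0.954), and ABCB4, which lies in the same family as ABCB1, had a change of -0.21 (limma adjusted p = 0.341). ABCG2 and ABCB5 were dim, at means of 2.63 and 2.27.

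**Figure D3:**
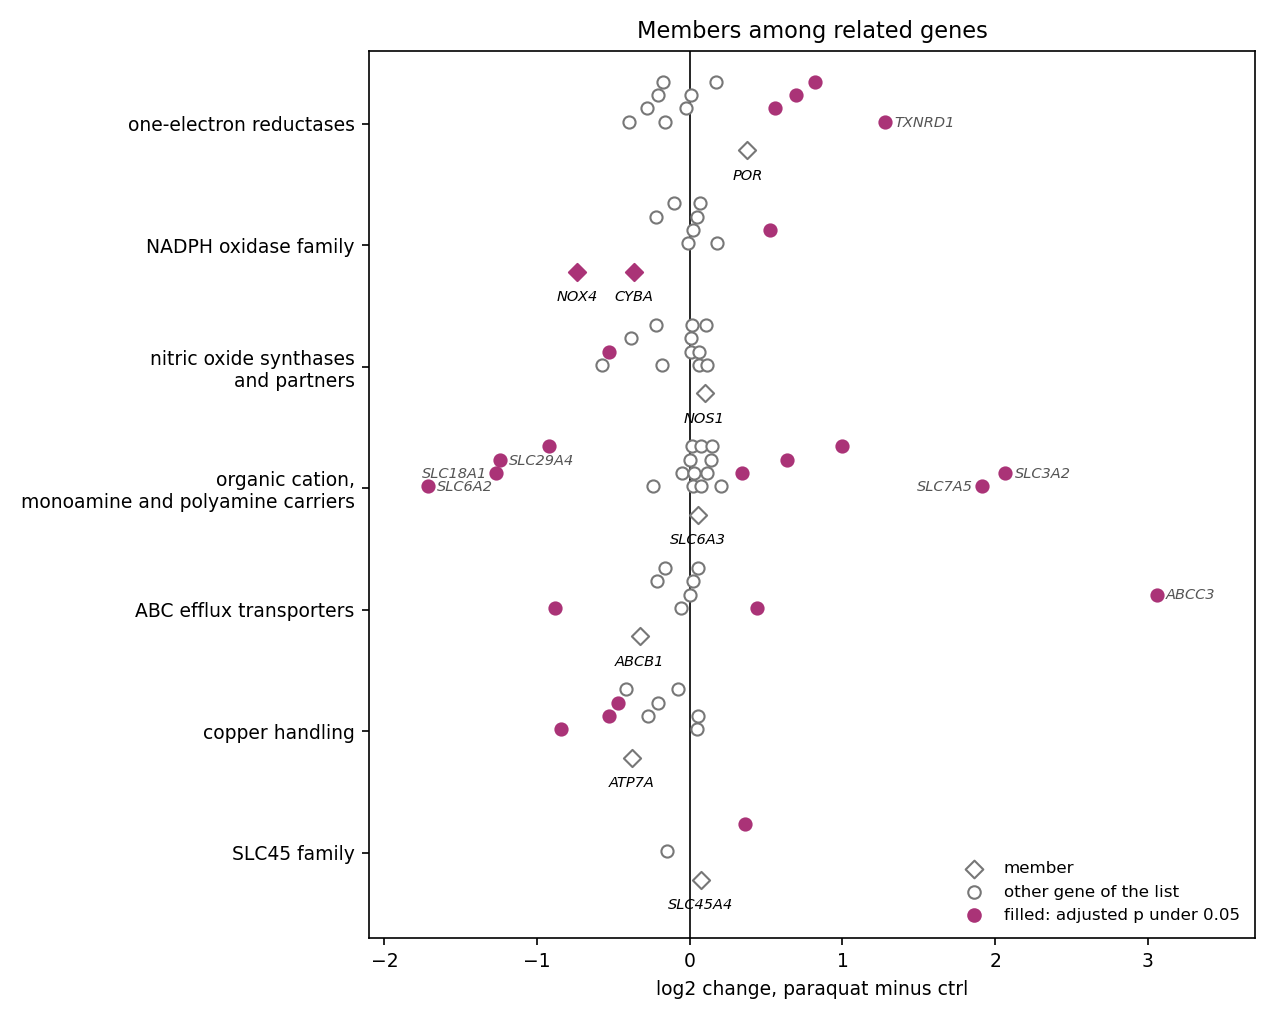
log2 change, paraquat minus ctrl (x axis), of every measured gene in 7 lists around the members (y axis). Diamonds are members, circles the other genes, and filled symbols passed at an adjusted p under 0.05. The members lie between -0.74 and 0.38, inside the span set by SLC6A2 at -1.72 and ABCC3 at 3.06.

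**Figure D4:**
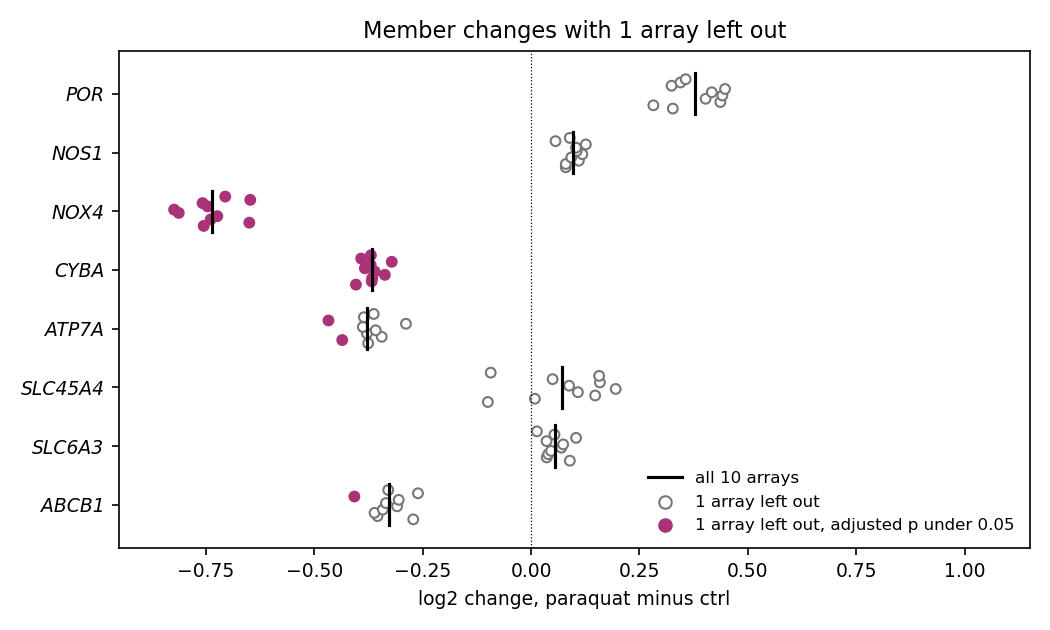
log2 change of each member, paraquat minus ctrl (x axis), with all 10 arrays (bar) and with each array left out in turn (circles, filled where the adjusted p is under 0.05). NOX4 and CYBA passed in all 10 refits, ATP7A in 2 and ABCB1 in 1, and POR stayed between 0.28 and 0.45 without passing.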

How the data were processed

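The deposited table holds log2 values that the authors made with RMA, per the submitters' processing notes, with 1 value per transcript cluster. The log2 scale was inferred from their range. The sources used here name no software, version, filter or genome build. No detection calls were used, so dim rows may hold only background. Platform annotation gave 1 symbol to 14432 rows, several to 2408 and none to 5171. Of the first, 14404 matched RefSeq (GRCh38.p14) by gene identifier, and the brightest row stood for a gene.

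Paraquat was compared with ctrl in limma 3.58.1 under R 4.3.3, with group as the only term, no filter, 8 residual and 3.06 prior degrees of freedom, two-sided and adjusted over 22011 rows. Correlations between arrays of a group lay between 0.977 and 0.993, and no arrays were identical. Precision is limited by the 5 arrays per group (median SE 0.13). The fit was tested on simulated data. Promoter stretches came from RefSeq's table, without its bases after the start.

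The members and lists were chosen with earlier results of these data known. From each list the text names up to 3 changed genes with the largest changes, and the 3 profiles most like each changed member. Other genes were named after their values were seen. Alternatives covered scaling, a filter on dim rows, the variance model, array weights, omitted arrays, the threshold and a block.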

Additional observations from a re-analysis of the deposited data

How the results depend on the processing

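NOX4 and CYBA kept their direction and passed under all 17 alternatives, with NOX4 between -0.82 and -0.65 and CYBA between -0.40 and -0.32. The count of members that fell was 2 with all arrays, 4 with array weights (ATP7A at a limma adjusted p of 0.00598 and ABCB1 at 0.0287 joined) and 2 to 4 with 1 array left out. Over the whole table of 22011 rows, 4397 changed with all arrays weighted alike and 6196 with array weights. ATP7A also passed without the dimmest 33.3% of rows (limma adjusted p = 0.0437), a step that removes NOS1, and without both ctrl 11 and Paraquat 12 (limma adjusted p = 0.0461). SLC45A4 lay between -0.10 and 0.20 with 1 array left out, below 0 without ctrl 7 (-0.10) and without Paraquat 20 (-0.09), and never passed. The number of changed rows went from 4397 to 2492 at an adjusted p under 0.01. The median change of all rows stayed between -0.03 and 0.05 under every alternative. Alternatives were run for 28 genes beside the members, namely those called in the 7 lists around them and those with profiles most like NOX4 and CYBA. All 28 were called with all arrays, 4 lost the call somewhere and none turned in direction: IDH3G in 12 of 17 alternatives, SLC45A2 in 10 of 16, ATP13A3 without both ctrl 11 and Paraquat 12 (limma adjusted p = 0.0511) and RAC2 without Paraquat 20. Copper handling genes that fell numbered 3, but 7 with array weights, where more rows changed over the whole table, and 5 with the block described next. The marker, tissue-restricted and uncalled genes named were not followed one by one through the alternatives. Of the recounts over the 7 lists around the members, 227 stayed within 1.5 times of the count with all arrays and 25 did not, most of them counts of 1 gene. A mean over several rows of a gene was not run, since each member had 1 row.

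The groups share no sample numbers, so the labels give no pairs. A replicate block that joins consecutive numbers, 7 with 8 and so on, was added after seeing the data. Deviations from the group means correlated between 0.09 and 0.46 within them, and 6 of 10 arrays correlated best with their neighbour in the other group. With that block 5379 rows changed, 1 member rose (POR, 0.38, limma adjusted p = 0.0115) and 3 fell, ATP7A (limma adjusted p = 0.0167) beside NOX4 and CYBA.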
